A study of Mus musculus with 6 samples.

Results

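The genes described here were p53 (Trp53), its negative regulators Mdm2 and Mdm4, and 7 genes that p53 is known to switch on in cell cycle arrest, repair and feedback: Cdkn1a, Ccng1, Sesn2, Phlda3, Zmat3, Trp53inp1 and Gadd45a. They were taken by gene symbol from the expression tables and made up 10 of the 17463 genes listed. The RNA came from fetal liver erythroblasts of C57BL/6J mice (E14.5 by the paper). TER119-negative cells, the erythroid cells that do not yet carry the surface antigen TER119, were cultured in erythropoietin (Epo) medium for 30 h, with 40 µM cholesterol in 3 samples and without it in 3 control samples. By the paper TER119+ cells were then sorted for mRNA sequencing, and its legends call the controls vehicle-treated where the labels call them untreated. All 6 samples shared strain, tissue, Epo and culture time, so cholesterol was the labelled difference between the groups.

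p53 is a transcription factor that halts the cell cycle, promotes DNA repair or starts apoptosis when DNA is damaged or ribosome assembly fails. It is held mainly at the protein level: Mdm2 marks it for degradation and Mdm4 blocks its activating domain, so its mRNA level says little about its activity, which is usually read from its target transcripts. The best known of these is Cdkn1a, which encodes the cyclin-dependent kinase inhibitor p21, and p53 activity is known in erythroid cells for the anaemia that follows ribosomal protein defects.

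All 10 genes were transcribed in the cultured erythroblasts, and few of them passed a test of the difference with cholesterol. Cdkn1a was 20.2% lower on average in the cholesterol-treated samples than in the controls and Phlda3 17.6% lower. Both fell in each of the 3 same-numbered pairs of samples. Neither passed the test when condition was the sole term of the model, and both passed when the replicate number was added as a block. With that block 5.2% of all genes tested passed as lower. The call for Phlda3 was lost with the same block in another test, DESeq2. Trp53, Mdm2 and Mdm4 did not pass in either model.

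Because the p53 protein binds DNA at its targets, the start regions of the 2 genes that passed with the block and of Ccng1, the remaining member whose groups did not overlap in CPM after TMM normalization, are printed here. Each is the RefSeq window of 300 bases from 250 before to 50 after a start on GRCm38.p6, read along the strand of the gene. Capitals mark half-sites of the p53 response element consensus (10 bases each) and the element made of 2 adjacent half-sites, allowing 1 mismatch over its 20 bases, on either strand.
Cdkn1a upstream start, chr17:29090729-29091028, plus strand: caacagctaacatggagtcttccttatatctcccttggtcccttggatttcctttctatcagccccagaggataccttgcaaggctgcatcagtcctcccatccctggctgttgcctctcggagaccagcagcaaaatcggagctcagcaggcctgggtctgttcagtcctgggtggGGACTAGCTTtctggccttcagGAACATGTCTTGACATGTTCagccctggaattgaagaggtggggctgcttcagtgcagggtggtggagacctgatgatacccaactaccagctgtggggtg
Cdkn1a downstream start, chr17:29093519-29093818, plus strand: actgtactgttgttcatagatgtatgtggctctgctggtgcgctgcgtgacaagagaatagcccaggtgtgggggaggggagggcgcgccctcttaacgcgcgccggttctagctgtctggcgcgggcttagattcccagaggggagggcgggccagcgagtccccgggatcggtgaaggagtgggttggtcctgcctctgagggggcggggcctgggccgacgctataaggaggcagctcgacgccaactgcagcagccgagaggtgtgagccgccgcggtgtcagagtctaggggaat
Phlda3, chr1:135765835-135766134, plus strand: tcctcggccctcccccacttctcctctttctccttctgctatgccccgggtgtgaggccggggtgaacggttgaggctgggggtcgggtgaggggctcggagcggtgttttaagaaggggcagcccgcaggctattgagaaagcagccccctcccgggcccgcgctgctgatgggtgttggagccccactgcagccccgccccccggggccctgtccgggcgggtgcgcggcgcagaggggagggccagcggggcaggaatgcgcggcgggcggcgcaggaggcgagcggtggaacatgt
Ccng1, chr11:40755237-40755536, minus strand: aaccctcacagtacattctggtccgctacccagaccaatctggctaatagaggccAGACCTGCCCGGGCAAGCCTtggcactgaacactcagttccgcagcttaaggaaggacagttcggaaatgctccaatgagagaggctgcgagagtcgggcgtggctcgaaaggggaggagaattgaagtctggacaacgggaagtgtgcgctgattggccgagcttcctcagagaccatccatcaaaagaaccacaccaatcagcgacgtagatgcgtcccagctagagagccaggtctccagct

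The promoter table held 8 of the genes, with 10 windows between them, and the full element was found in 2 of these windows. In Cdkn1a it began 51 bases before the upstream start and in Ccng1 195 bases before the start, each with 1 mismatch to the consensus. Of all 32851 promoter windows, 29 (0.0883%) held such an element. An exact half-site was found in 5 of the 10 windows (1 each of Trp53, Mdm2, Cdkn1a, Ccng1 and Gadd45a), and in 8.36% of all windows. The downstream Cdkn1a window, whose start lies 2790 bases further along, and the Phlda3 window held no match, which says only that those letters are not in those windows. Zmat3 and Trp53inp1 were not in the table. The windows were searched for letters alone, and p53 binding was not measured in these samples.

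Levels were compared between genes in FPKM, which is scaled by transcript length. Cdkn1a was the most abundant of the 10, with 269 ± 29.3 FPKM (SD, n = 3) in control erythroblasts. That was the 97.9th percentile of the 11277 genes with enough counts to be tested. Gadd45a, which encodes a stress sensor that binds cell cycle and repair proteins, followed with 205 ± 28.8 FPKM, and the ranges of these 2 genes overlapped in both groups. Trp53 had 111 ± 7.38 FPKM and Ccng1, which encodes cyclin G1, a feedback partner of Mdm2, had 106 ± 4.97 FPKM. Those 2 overlapped in the control samples but not with cholesterol, where Trp53 had 121 ± 9.90 and Ccng1 96.6 ± 12.7 FPKM. Below them came Mdm2 with 55.2 ± 2.70, Sesn2 with 41.0 ± 7.39, Mdm4 with 32.5 ± 3.44 and Phlda3 with 27.7 ± 3.23 FPKM in the controls. The ranges of Mdm4 and Phlda3 overlapped in the controls, and with cholesterol those of Mdm2 and Sesn2 did, as did those of Phlda3 and Trp53inp1. Trp53inp1 with 16.8 ± 4.63 FPKM and Zmat3 with 5.36 ± 0.524 FPKM closed the order, Zmat3 at the 42.8th percentile of the genes tested. The order of the group means was the same in both groups.

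The libraries were even in size, with 19826797 to 20061702 counts each. A count of 3, taken as the lowest level that could be told from 0, was 0.15 CPM (a count divided by the size of its library and scaled to a common total), far below each of these genes, whose smallest count in a sample was 584 for Phlda3. The erythroblast label held, since 11 of the 12 erythroblast markers listed were in the table and were abundant. Together their CPM after TMM normalization came to 14.0% to 20.9% of the common total in each sample, which is not exactly their share of counts. Of the variance between samples 70.3% lay on one principal component, on which the control and cholesterol-treated samples of replicate 3 both lay on one side of the other 4 samples. In bulk RNA, fewer cells of a type and less RNA per cell cannot be told apart. The paper speaks of independent experiments for the means plotted alongside the RNA-seq, but the labels do not say whether the sequenced samples of a group came from separate cultures. The p-values measure the spread between these samples, which may then be technical.

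**Figure D1:**
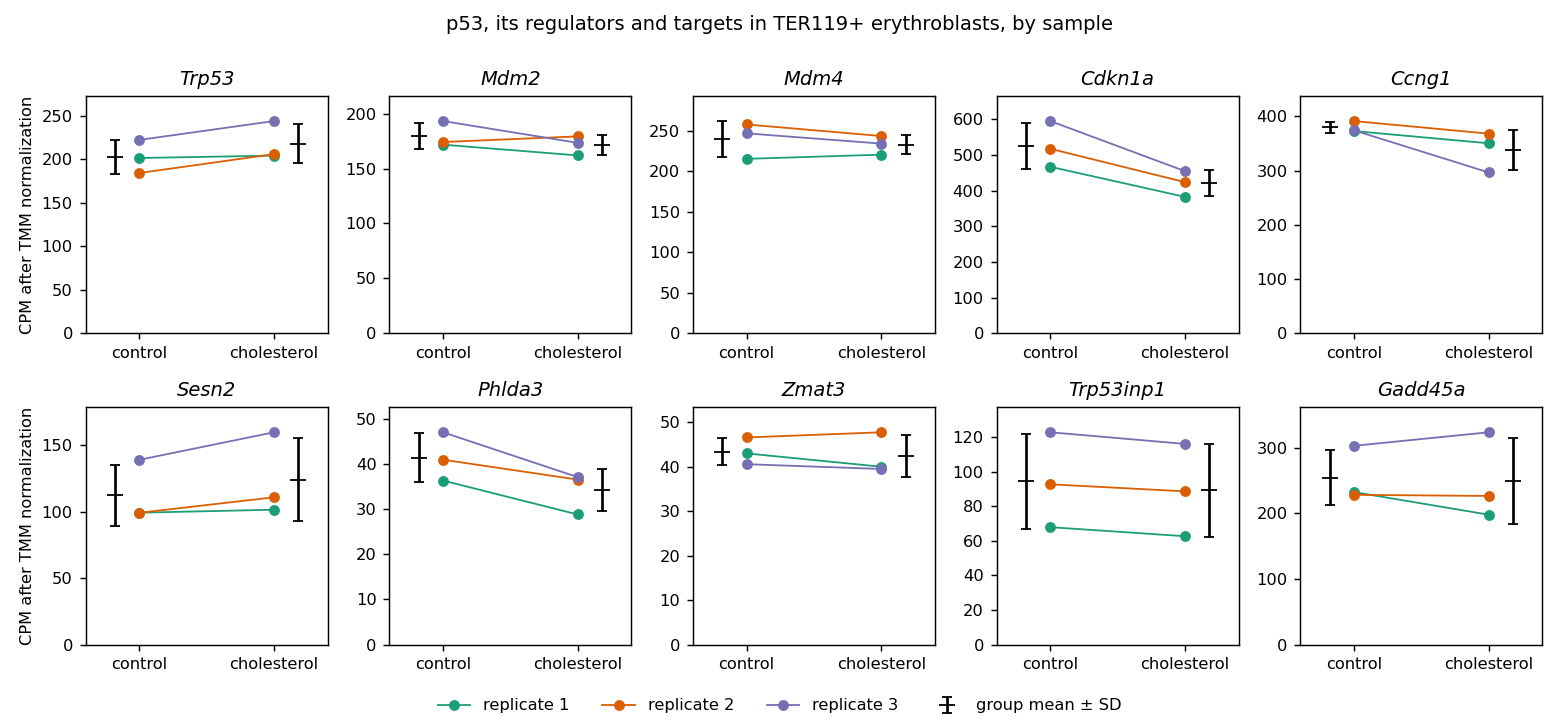
Level of each of the 10 genes in every sample, in CPM after TMM normalization (linear axes from 0). Coloured points are samples, lines join same-numbered samples, and black marks give the group mean ± SD (n = 3). All lines fall for Cdkn1a, Phlda3, Ccng1 and Trp53inp1 and all rise for Trp53 and Sesn2, and replicate 3 is the highest in both groups for 6 of the 10 genes.

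The first comparison asked whether p53 itself and the genes that restrain it differed between the groups. For replicates 1, 2 and 3 in turn, Trp53 (chr11:69580359-69591873, plus strand, GRCm38) was at 202, 184 and 222 CPM in the controls and at 204, 206 and 244 CPM with cholesterol. It was higher with cholesterol in every pair, by as little as 0.02 and as much as 0.16 on the log2 scale, yet the groups overlapped. The log2 fold change was 0.11 (SE 0.10, adjusted p = 0.9998 with edgeR's quasi-likelihood test and Benjamini-Hochberg adjustment), and with the replicate block 0.10 (SE 0.04, adjusted p = 0.181). Leaving out cholesterol replicate 3 brought it down to 0.02 and leaving out control replicate 3 raised it to 0.18, without the block.

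Mdm2 (chr10:117688875-117710758, minus strand), which encodes the ubiquitin ligase of p53 and is itself a p53 target, was at 172, 174 and 193 CPM in the controls. With cholesterol it was at 162, 179 and 173 CPM. The groups overlapped and the pairs disagreed in direction, and the log2 fold change was -0.07 (SE 0.07, edgeR adjusted p = 0.9998; with the block SE 0.05 and adjusted p = 0.476). Its counts were fractional in all 6 samples, and the reason was not tested. Mdm4 (chr1:132959484-133030561, minus strand), an Mdm2 relative that binds p53 without degrading it alone, was at 216, 258 and 247 CPM in the controls and at 221, 244 and 234 CPM with cholesterol. It was higher in 1 pair and lower in 2, with a log2 fold change of -0.04 (SE 0.09, edgeR adjusted p = 0.9998; with the block SE 0.04 and adjusted p = 0.671). Neither regulator of p53 therefore passed the test in either direction.

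The second comparison asked whether the genes that p53 switches on differed. Cdkn1a (chr17:29090976-29100727, plus strand) encodes p21, which stops the cell cycle by inhibiting cyclin-dependent kinases. The control samples held 467, 518 and 596 CPM and the cholesterol-treated samples 383, 424 and 455 CPM. Every cholesterol-treated sample was below every control sample, and in log2 units the pairs fell by 0.29, 0.29 and 0.39. The fall was thus of one size in replicates 1 and 2 and larger in replicate 3.

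With condition alone the log2 fold change of Cdkn1a was -0.32 (SE 0.11), and the adjusted p over the 11277 genes tested was 0.9998 (edgeR). It was the 1 member of 10 with an unadjusted p under 0.05, where 1.92% of all genes tested were lower at that threshold. With the replicate block the estimate was again -0.32, the SE dropped to 0.04 and the adjusted p was 5.61e-05. That placed Cdkn1a at rank 52 by p with the block among all 11277 genes tested, higher and lower together. Larger falls than that of Cdkn1a were seen in 460 of the 586 genes called lower with the block, so its fall was not among the larger ones. DESeq2 with the same block, a test chosen after seeing the data, gave an adjusted p of 9.04e-09, and DESeq2 without it 0.945. An annotated antisense gene, AC167363.2, overlaps Cdkn1a exons, and whether the counting used strand is not stated.

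Phlda3 (chr1:135766119-135769136, plus strand) encodes a p53-induced protein that competes with the kinase Akt for membrane lipids. Its level was 36.3, 40.9 and 47.0 CPM in the controls and 28.8, 36.5 and 37.1 CPM with cholesterol. The groups overlapped, because the lowest control lay under the 2 highest cholesterol-treated samples, but in log2 units all 3 pairs fell, by 0.33, 0.16 and 0.34. The log2 fold change was -0.28 in both models, with SE 0.14 and an edgeR adjusted p of 0.9998 for condition alone, and SE 0.06 and adjusted p = 0.00713 with the block. DESeq2 with the block gave an adjusted p of 0.199, so the call rested on the edgeR test. For condition alone, the log2 fold change was -0.17 without cholesterol replicate 1 and -0.18 without control replicate 3. It was -0.36 without control replicate 1.

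Ccng1 (chr11:40748552-40755311, minus strand) was at 373, 391 and 374 CPM in the controls and at 350, 368 and 297 CPM with cholesterol. Its groups did not overlap in CPM, though they did in FPKM, where cholesterol replicate 2 (106 FPKM) lay above control replicates 1 and 3 (104 and 103 FPKM). The fall was uneven and largest in replicate 3, with pair differences of -0.09, -0.09 and -0.34 on the log2 scale. The log2 fold change was -0.17 (SE 0.09, edgeR adjusted p = 0.9998), and with the block -0.17 (SE 0.05, adjusted p = 0.0511), just outside the threshold of 0.05. The value rested on 1 sample, being -0.08 without cholesterol replicate 3 and -0.09 (adjusted p = 0.282) with the block and without replicate 3. Its counts were fractional in 5 of the 6 samples.

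The other targets did not pass in either model, and with condition alone the edgeR adjusted p of each was 0.9998. Sesn2, which encodes a stress protein that restrains mTORC1 (a complex that promotes growth), was at 99.3, 99.2 and 139 CPM in the controls and at 102, 111 and 160 CPM with cholesterol. It was higher in all 3 pairs, and its log2 fold change with the block was 0.13 (SE 0.05, edgeR adjusted p = 0.103). Trp53inp1, which encodes a nuclear protein that aids p53-dependent death and autophagy, was at 67.9, 92.8 and 123 CPM in the controls and at 62.7, 88.7 and 116 CPM with cholesterol. It was lower in all 3 pairs by 0.07 to 0.12 on the log2 scale, an even but small difference (with the block -0.09, SE 0.05, edgeR adjusted p = 0.315). Gadd45a was at 233, 228 and 303 CPM in the controls and at 198, 227 and 324 CPM with cholesterol. Its pairs went from -0.23 to 0.09 on the log2 scale (with the block -0.05, SE 0.06, edgeR adjusted p = 0.725), so no common direction was seen, and the antisense gene E230016M11Rik overlaps its exons. Zmat3, which encodes an RNA-binding zinc finger protein, was at 43.0, 46.6 and 40.5 CPM in the controls and at 40.0, 47.7 and 39.5 CPM with cholesterol. Its groups nearly coincided (with the block -0.03, SE 0.06, edgeR adjusted p = 0.810), and its counts were fractional in all 6 samples.

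**Figure D2:**
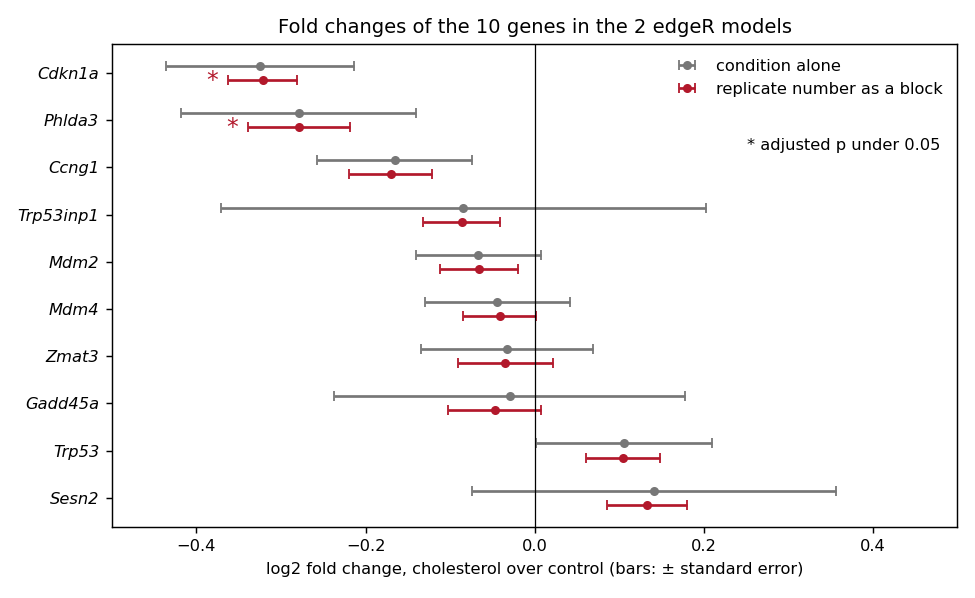
Log2 fold change (cholesterol over control) of the 10 genes in the edgeR model with condition alone (grey) and in the one that also has the replicate number (red). Bars are ± 1 standard error and asterisks mark an adjusted p under 0.05. The estimates hardly differ between the models while the standard errors shrink with the block, and asterisks stand at Cdkn1a and Phlda3 with the block.

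Counted together, 8 of the 10 genes were lower on average with cholesterol and 2 were higher, with a median log2 fold change of -0.06 against 0.01 over all genes tested. With condition alone 0 of the 10 passed in either direction, against 0.00887% of all genes tested that passed as higher (1 gene) and 0.0% that passed as lower. In that model 297 of all genes tested had an unadjusted p under 0.05, and DESeq2 without the block called 2 genes higher and 26 lower, with 0 of the 10 genes among them. With the block 2 of the 10 were lower, where 5.2% of all genes tested were, and 0 of the 10 were higher, where 1.65% were. DESeq2 with the block called 1 of the 10 lower (Cdkn1a), against 2.39% of the genes it gave an adjusted p. The groups did not overlap for 2 genes that were lower (Cdkn1a and Ccng1; 4.28% of all genes) and for 0 that were higher (3.72%), all in CPM. In FPKM the groups of Ccng1 overlapped and those of Cdkn1a did not. Of the 10 genes, 4 were lower in all 3 pairs (20.1% of all genes) and 2 were higher in all 3 (19.9%). Over 10 genes such counts are a description and set the group apart from no other.

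More of these genes differed by replicate number than by cholesterol. The replicate term in the edgeR model, tested after seeing the data, passed for 8 of the 10 genes, against 46.3% of all genes tested. Trp53inp1 differed most by replicate (edgeR adjusted p = 1.98e-09): replicate 3 held 1.81 times the level of replicate 1 in the controls and 1.85 times with cholesterol. Sesn2 (adjusted p = 1.69e-07) had ratios of 1.401 and 1.57, and Gadd45a (adjusted p = 3.43e-05) had 1.30 and 1.63. For Cdkn1a (adjusted p = 0.000269) they were 1.27 and 1.19. Ccng1 (adjusted p = 0.0530) and Mdm2 (adjusted p = 0.141) did not pass. In 6 of the 10 genes replicate 3 was the highest in both groups, and what the number stands for is not stated.

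Granulocyte, macrophage and mast cell markers were lower with cholesterol, as Cdkn1a and Phlda3 were. The 9 granulocyte markers summed to 70.4, 253 and 674 CPM in the controls and to 40.5, 110 and 281 CPM with cholesterol. All 9 were lower on average and all 9 passed as lower with the block. Together they came to at most 0.0674% of the common total of CPM in a sample. The 8 macrophage markers, all 8 lower on average and 5 called lower with the block, summed to 18.5, 42.5 and 130 CPM and to 13.1, 19.3 and 57.9 CPM. The mast cell and basophil list summed to 1.47, 4.11 and 18.5 CPM in the controls and to 0.493, 1.28 and 2.86 CPM with cholesterol, and the 2 of its 7 genes with enough counts to be tested passed as lower with the block. The megakaryocyte and hepatocyte markers were split in direction. Of 6 megakaryocyte markers 4 were lower and 2 higher on average, with 1 called with the block (Itga2b, log2 fold change -0.28, edgeR adjusted p = 0.00538) and Gp9 and Vwf higher in all 3 pairs. They summed to 89.5, 80.2 and 95.2 CPM in the controls and to 86.6, 77.6 and 81.0 CPM with cholesterol, so the sum was lower in every pair. Hepatocyte markers, 4 higher and 1 lower on average with 0 called, summed to 145, 120 and 348 CPM and to 253, 82.5 and 293 CPM. Lymphocyte markers summed to 0.0506, 0.396 and 1.76 CPM and to 0.345, 0.445 and 1.02 CPM, and none had enough counts to be tested.

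Erythroblast markers moved in that direction as well. All 11 were lower on average with cholesterol, 4 of them passing as lower with the block. Their summed CPM was 16.7%, 15.6% and 20.9% of the common total in the controls and 14.0%, 14.6% and 18.6% with cholesterol. The part of these cell types in the results for Cdkn1a and Phlda3 was not tested. Without replicate 3 the log2 fold change with the block was -0.29 for Cdkn1a (SE 0.04, edgeR adjusted p = 9.17e-09) and -0.25 for Phlda3 (SE 0.07, adjusted p = 0.0172). Without replicate 1 the call for Phlda3 was lost (log2 fold change -0.25, adjusted p = 0.0682), and that for Cdkn1a held (log2 fold change -0.34, adjusted p = 0.00207).

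**Figure D3:**
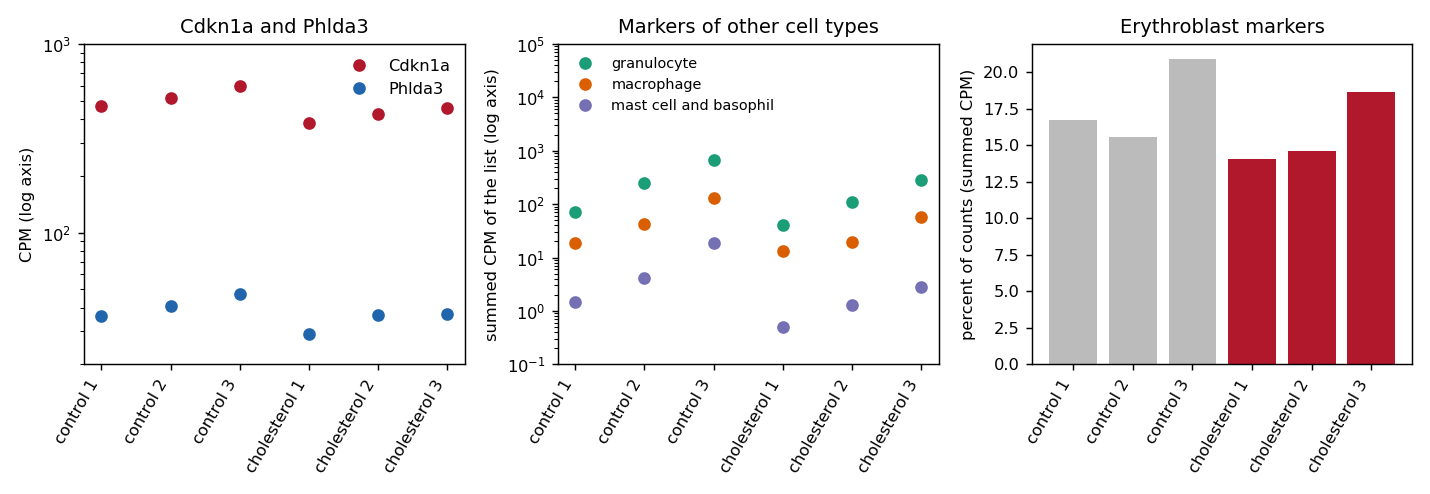
Left, Cdkn1a and Phlda3 in each sample (CPM, log axis). Middle, summed CPM of the granulocyte, macrophage and mast cell and basophil marker lists (log axis). Right, summed CPM of the 11 erythroblast markers as a percentage of the common total (linear axis from 0, control in grey and cholesterol in red). Within each same-numbered pair the cholesterol-treated sample is the lower one in every series shown.

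A wider set of 85 pathway genes in 10 lists was sought in the same way. Trp63 was not found by its symbol, and 78 of the 85 had enough counts to be tested. With condition alone 0 of the 78 passed. With the block 0 of the 78 were higher, where 1.65% of all genes tested were, and 2 were lower (Btg2 and Cdc25c), where 5.2% were, so these counts are no more than the background. DESeq2 with the block called 0 of them higher and 0 lower. In edgeR with the block 0 to 2 were lower and 0 to 2 were higher when a replicate was left out. The lists are given here by their counts and by the median log2 fold change for condition alone, beside the 0.01 of all genes tested.

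Targets in arrest and feedback were evenly split, with 5 of 10 higher and 5 lower and a median of -0.02. Among them Btg2, which encodes an antiproliferative protein that speeds mRNA decay, was at 273, 277 and 269 CPM in the controls and at 250, 253 and 236 CPM with cholesterol. The groups did not overlap and all 3 pairs fell. The log2 fold change was -0.15 (SE 0.06, edgeR adjusted p = 0.9998), and with the block -0.15 (SE 0.04, adjusted p = 0.0354).

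Of the p53 targets in apoptosis, which include Bax, Bbc3 (Puma) and Pmaip1 (Noxa), 6 of the 9 tested were lower and 3 higher, with a median of -0.09 and 0 called in either model. The one with the smallest p for condition alone, Aen, which encodes a nuclease that digests DNA in apoptosis, was at 105, 114 and 99.0 CPM in the controls and at 99.7, 101 and 89.6 CPM with cholesterol (with the block -0.13, SE 0.05, edgeR adjusted p = 0.0968). The 5 DNA repair targets had a median of 0.02 and 0 called. Xpc, which encodes a damage sensor of nucleotide excision repair, was at 3.94, 4.21 and 4.72 CPM in the controls and at 4.39, 3.56 and 3.22 CPM with cholesterol. Of the metabolic targets 5 of the 6 tested were lower, with a median of -0.09 and 0 called. Dcxr, which encodes a carbonyl reductase, was at 12.9, 16.7 and 16.6 CPM in the controls and at 12.6, 13.04 and 13.6 CPM with cholesterol (with the block -0.23, SE 0.09, edgeR adjusted p = 0.145). Fas, Tigar and Gls2 had too few counts to be tested. With 5.2% of all genes tested lower with the block, 0 called in lists this short is near the background.

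Upstream of p53, 11 of 14 kinases and cofactors were higher and 3 lower, with a median of 0.05 and 0 called, and 7 were higher in all 3 pairs (19.9% of all genes tested). Ppp1r13l, which encodes the p53 inhibitor iASPP, had the smallest p of this list for condition alone. It was at 6.52, 5.79 and 5.035 CPM in the controls and at 7.935, 7.66 and 6.80 CPM with cholesterol. The groups did not overlap, and its log2 fold change was 0.37 (SE 0.16, edgeR adjusted p = 0.9998; with the block SE 0.13 and adjusted p = 0.0887).

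The nucleolar genes that restrain Mdm2, ribosomal proteins and nucleolar factors that bind Mdm2 when ribosome assembly is disturbed, were higher in 5 of 6 tested. Their median was 0.07, 4 of them were higher in all 3 pairs, against the same 19.9%, and 0 were called. Rpl23 was at 360, 317 and 305 CPM in the controls and at 404, 364 and 312 CPM with cholesterol (with the block 0.13, SE 0.04, edgeR adjusted p = 0.0726). Cdkn2a, whose p19Arf product sequesters Mdm2, had 0 counts in all 6 samples, which allows up to 0.15 CPM. Trp73 of the p53 family had 0 counts in all but 1 sample, and Trp63 was not analysed here.

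Of the other inhibitors of cyclin-dependent kinases, 4 of the 5 tested were lower and 1 was higher, with a median of -0.14 and 0 called. The smallest p for condition alone was that of Cdkn3, which encodes a phosphatase acting on cyclin-dependent kinases, at 116, 108 and 127 CPM in the controls and 106, 103 and 109 CPM with cholesterol (with the block -0.14, SE 0.05, edgeR adjusted p = 0.0814). The 11 genes of the DREAM complex, through which p21 is known to silence cell cycle genes, had a median of 0.02, with 7 higher, 4 lower and 0 called. E2f5, a repressor E2F, was at 8.64, 6.39 and 7.53 CPM in the controls and at 6.80, 6.82 and 5.06 CPM with cholesterol (with the block -0.27, SE 0.14, edgeR adjusted p = 0.292).

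The cell cycle genes known to be repressed through p21 were lower in 10 of 12 cases, with a median of -0.09. Of these 12, 7 were lower in all 3 pairs (20.1% of all genes tested), and 5 had groups that did not overlap (Ccna2, Ccnb1, Cdk1, Cdc25c and Bub1; 4.28% of all genes tested). Cdc25c, which encodes the phosphatase that activates Cdk1 for mitosis, was at 56.3, 59.6 and 69.9 CPM in the controls and at 52.5, 53.8 and 54.6 CPM with cholesterol. Its log2 fold change was -0.21 (SE 0.09, edgeR adjusted p = 0.9998), and with the block -0.20 (SE 0.06, adjusted p = 0.0364). Cdkn1a and most of these genes were therefore lower with cholesterol on average in the same samples, and 1 of the 12 passed with the block, where 5.2% of all genes tested were lower.

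**Figure D4:**
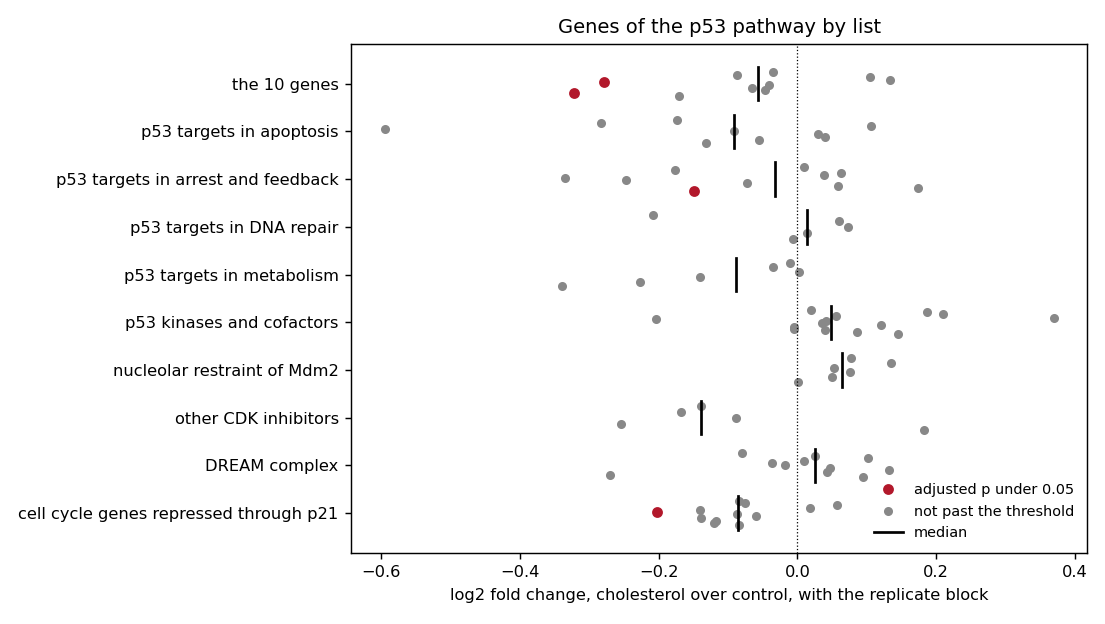
Log2 fold change (cholesterol over control, with the replicate block) of each tested gene, by list. Points are genes, red where the adjusted p was under 0.05 (Cdkn1a, Phlda3, Btg2 and Cdc25c), and black bars are list medians. Most points lie within 0.2 of 0, and the genes known to be repressed through p21 lie mostly to the left of 0.

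Genes with the sample pattern most like that of Trp53 and Cdkn1a were sought among 7243 genes, by the root mean square difference of centred log2 CPM over the 6 samples. For Trp53 they were Nup62 (0.03), Srsf6 (0.03) and Vps45 (0.03), against an SD of 0.13 for Trp53 itself. Nup62, which encodes a nuclear pore protein, was at 254, 230 and 286 CPM in the controls and at 252, 252 and 300 CPM with cholesterol. For Cdkn1a they were Pqlc3 (0.05), Myl12b (0.06) and Epb41l1 (0.06), against an SD of 0.20. Myl12b, which encodes a regulatory light chain of myosin, was at 40.7, 44.7 and 50.0 CPM in the controls and at 34.1, 34.9 and 36.1 CPM with cholesterol. The Trp53 profile and its neighbours were highest in replicate 3 of each group, and the neighbours of Cdkn1a were lower with cholesterol in every pair. These likenesses describe 6 samples and carry no test.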

How the data were processed

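Poly(A) RNA of 3 control and 3 cholesterol-treated samples was sequenced as single-end reads on a DNBSEQ platform. The authors deposited expected counts per gene, not normalized, of which 27.9% to 29.5% per sample were not whole, and a table of normalized values that was taken as FPKM because counts and values together imply transcript lengths. The submitters' processing notes name HISAT2 2.0.4, Bowtie2 2.2.5, RSEM 1.2.12, DESeq2 1.4.5 and GRCm38.p6, with no role given. Gene positions came from GENCODE on GRCm38 and promoter windows from RefSeq.

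The tests had been planned for whole counts, so the expected counts were rounded. The test was that of edgeR 4.0.16 (R 4.3.3; filterByExpr with at least 10 counts and 15 in total, TMM, robust quasi-likelihood test, Benjamini-Hochberg adjustment over 11277 of 17463 genes), checked on simulated data first. SEs were derived from the F statistic. CPM values are after TMM. With 3 samples a group an exact permutation test cannot go below p = 0.1, so none is given.

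Replicate numbers, from the sample titles, occur in both groups. Deviations from the group means of same-numbered samples correlated across genes by 0.729, 0.348 and 0.825, and the numbers were taken to pair the samples. Deviations within a group sum to 0, so an outlying replicate 3 also raises the other correlations, which cannot by themselves show pairing. No 2 libraries agreed within sampling noise (chi-square per degree of freedom at least 8.74). By that measure the same-numbered libraries were nearest each other in replicates 2 (8.74) and 3 (13.1). In replicate 1 (11.2) they were not, as control 1 was nearer to control 2 (9.95) and cholesterol 1 to cholesterol 2 (10.5). Alternatives were the block, DESeq2 1.42.0, other scalings and filters, limma 3.58.1 on log2(FPKM + 1) or log2(FPKM + 0.1), and leaving out samples. DESeq2 with the block and the test of the replicate term were added after seeing the data.

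The genes and lists were chosen with earlier results of these data known. Named beside the 10 genes were, per list, up to 3 genes with the smallest p among those called with the block, otherwise the gene with the smallest p for condition alone, and the 3 genes nearest in profile to Trp53 and to Cdkn1a with a mean of at least 10 CPM. The 5 p21-repressed genes without overlap were named after their values were seen.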

Additional observations from a re-analysis of the deposited data

How the results depend on the processing

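Over 18 alternatives for each of the 10 genes, 160 of 180 results kept direction and side of the threshold. Cdkn1a stayed lower in all 18 (log2 fold change -0.40 to -0.23, adjusted p 9.04e-09 to 0.9999) and passed in the 5 fits with the block. Phlda3 passed in 3 of 18 (-0.36 to -0.17). The replicate block changed the calls of these 2 genes and of Btg2 and Cdc25c, and no other call among the 10 genes and the 78 pathway genes (among the marker lists it added the calls given in the report). For condition alone 0 of the 10 genes passed and 2 were lower with the block, 1 with DESeq2 and the block, and 1 to 2 with the block and a replicate left out. Of the 78 pathway genes 2 were lower with the block, 0 to 2 lower and 0 to 2 higher with the block and a replicate left out. Over all genes, the 1 higher and 0 lower became 186 and 586 with the block, 2 and 26 with DESeq2, and 44 and 242 with DESeq2 and the block. With the block, leaving out replicate 1, 2 or 3 gave 118, 67 and 210 higher and 703, 229 and 516 lower. Leaving out a sample without the block gave 0 to 7 lower (7 without control replicate 3, 1 without cholesterol replicate 3).

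The direction of 5 genes turned when a sample was left out. Mdm4 ranged from -0.11 to 0.012 (without control replicate 2), Sesn2 from -0.080 (without cholesterol replicate 3) to 0.32, Zmat3 from -0.13 to 0.023 and Trp53inp1 from -0.32 to 0.15 (also turned without cholesterol replicate 1, 0.12). Gadd45a ranged from -0.26 to 0.12. With the block and without replicate 1, Zmat3 was at 0.0022 and Gadd45a at 0.045. None of these 5 genes passed in any fit, and the cause was not tested. Leaving out a sample also moved Trp53 (0.02 to 0.18), Ccng1 (-0.23 to -0.08) and Mdm2 (-0.10 to -0.011, the latter without control replicate 3; -0.12 with the block and without replicate 2), which did not pass in any fit.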
